A study of Mus musculus with 8 samples.

Results

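The cells described here are 200 single-cell columns of the medium-size tumor of a KPC mouse that were chosen by their measured levels of Krt17, Slco2a1, Gabrp, Pdgfb, Slc4a11, Prss22 and Tnc. For each column of the count table, the UMIs of each of these 7 genes were divided by the column total, multiplied by 10000 and put on a log2 scale after adding 1, and the mean over the 7 genes was the score. Columns with at least 1 UMI for 5 or more of 11 myeloid genes (Lyz2, C1qa, C1qb, C1qc, Cd68, Csf1r, Adgre1, Mrc1, Cd14, Fcgr3 and Ms4a7) were barred, which removed 317 of the 2812 columns. The 200 members are the highest scores among the remaining 2495 columns, and the series holds 4345 columns in all. Because the score uses these counts, the higher level of the 7 genes in the members is a description and was not tested.

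The tumors came from untreated KPC mice, in which Pdx-1-Cre, driven by the promoter of a gene of the early pancreas, switches on the engineered cancer alleles of the model, among them LSL-Trp53R172H/+, in pancreatic cells, so that pancreatic ductal adenocarcinoma forms. Cells dissociated from 1 medium-size and 1 large-size tumor went through droplet capture and 3′ end sequencing (10x Genomics Chromium, v2 chemistry), and each tumor was sequenced as 4 technical replicates that are pooled in 1 table. The ages of the mice are not given in the sources used here. A UMI (unique molecular identifier) stands for 1 captured mRNA molecule, and levels are given as CPM, the UMIs of a gene per 1000000 UMIs of the group of columns. Since cells from a single tumor do not replicate a condition, groups of cells were not tested against each other, and the exact 95% Poisson and binomial intervals cover counting error only.

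Keratin 17 is an intermediate filament protein of stressed and basal epithelia, and tenascin C, encoded by Tnc, and fibronectin, encoded by Fn1, are matrix glycoproteins that are laid down at wound edges and around carcinomas. In human pancreatic cancer, tumors are often divided into a classical type, which keeps a gastrointestinal program with trefoil factors, gastrokines and mucins, and a basal-like type, which loses it and gains keratins of basal and squamous epithelium. Among the other score genes, Slco2a1 encodes the prostaglandin transporter, Gabrp the pi subunit of the GABA-A receptor, Pdgfb a growth factor for pericytes and fibroblasts, Slc4a11 a membrane transporter of the bicarbonate transporter family and Prss22 a tryptic serine protease.

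The score fell smoothly through the threshold. It was 2.02 in the highest column, had a median of 0.837 among members and reached 0.569 in the last member, and the first column outside had 0.568. The median of all eligible columns was 0. Of the 200 members, 9 had UMIs of 1 score gene, 50 of 2, 54 of 3, 41 of 4, 23 of 5, 10 of 6 and 13 of all 7, so most members rest on UMIs of 2 to 4 genes. In 2061 other carcinoma-like columns, 1 column had 5 or more of them. These comparison columns are not members, have at least 1 UMI for fewer than 5 of the 11 myeloid genes and at least 4 of 11 epithelial markers (the keratins Krt7, Krt8 and Krt18, the claudins Cldn3, Cldn4 and Cldn7, and Muc1, Cdh1, Spint2, Tspan8 and Elf3), and have fewer than 5 of 10 fibroblast, 5 of 10 endothelial and 4 of 6 mesothelial markers. Depth was alike in both groups, with a median of 5590 UMIs per member (range 2711 to 40372) and 6011 in the comparison columns (range 2713 to 39252). Members with 5 to 7 score genes were deeper, with a median of 12870 UMIs for those that are carcinoma-like against 3524 for those with 1 or 2, so the number of score genes detected is partly a matter of depth.

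**Figure D1:**
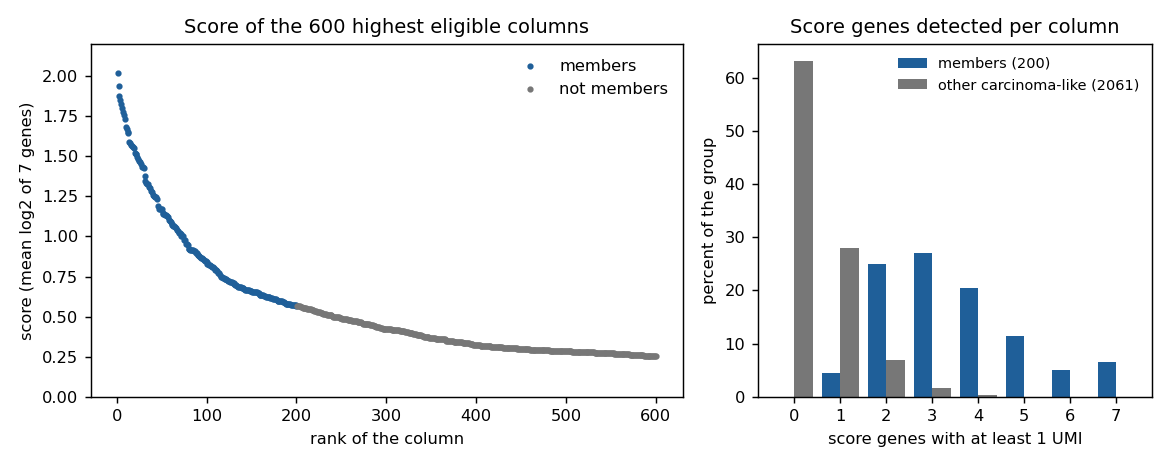
Left, the score of the 600 highest eligible columns of the medium tumor by rank, with the 200 members in blue and columns outside in grey. Right, the share of members and of other carcinoma-like columns in percent by the number of score genes with at least 1 UMI. The score passes from 0.569 to 0.568 at the threshold without a step, and 46 members against 1 of 2061 other columns have 5 to 7 score genes.

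The label given to these cells, Krt17 and Tnc basal-like carcinoma cells, was checked against markers that the score did not use. Of the 200 members, 190 (95%, exact 95% interval 91.0% to 97.6%) had at least 4 of the 11 epithelial markers, with a median of 9 of 11. Epcam, the epithelial adhesion molecule, was detected in 95.5% of members and Krt19, a ductal keratin, in 93%. Passing all the marker conditions above, 184 members are carcinoma-like. The other 16 are not. Of these, 10 lie in cluster 11, led by Col1a1, Tagln and Col1a2, 5 in cluster 14, led by Plvap, Fabp4 and Gpihbp1, and 1 in cluster 4. At least 5 fibroblast markers were detected in 9 of them and at least 5 endothelial markers in 7. They hold 154 of the members' 341 Tnc UMIs and 562 of their 649 Sparc UMIs, and 0 of their 195 Krt17 UMIs. Summed over the 10 fibroblast markers, the level was 567 CPM in all members, 28.7 CPM in the carcinoma-like members and 46.3 CPM in the comparison columns, and for the 10 endothelial markers it was 132, 15.7 and 31.5 CPM. Results that rest on these 16 columns are therefore given with and without them.

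The basal keratins did not carry the label. Krt5, the keratin of basal cells, had 0 UMIs in the members, which allows up to 2.37 CPM at the exact 95% limit, and 0 in the comparison columns. Krt14, its partner, had 2 UMIs in members against 121 UMIs (7.66 CPM) in the comparison columns, and Trp63, the regulator of basal identity, had 0 UMIs in members. Krt6a had 1 UMI, Krt6b 1 and Krt13 0, and Krt16 had 9 UMIs (5.78 CPM) against 22 UMIs (1.39 CPM) in the comparison columns. At least 1 of 7 basal keratins (Krt5, Krt14, Krt15, Krt6a, Krt6b, Krt16 and Krt13) was detected in 12 members (6.0%, 3.14% to 10.3%) and in 7.38% of the comparison columns (6.28% to 8.59%). Krt17 was used to choose the members, so nothing is read from its level. Reads of Krt17 can be shared with near-identical type I keratin copies, so its count carries that uncertainty. The cells are called members below.

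The promoters of Cldn4 and Ctla2a, which were high in the members and not used by the score, are shown beside that of Tnc, chosen because they hold an AP-1 motif and the Tnc window does not. Csf1, also high in members, had a window with 0 matches to either motif searched below. The sequences are RefSeq windows of GRCm38.p6 from 250 bases before to 50 after the transcript start, read 5′ to 3′ on the gene's strand, with matches to the AP-1 motif TGANTCA in capitals. The TEAD motif GGAATG was searched as well, both motifs were searched on both strands, and neither overlaps the other here. Cldn4 lies at chr5:134946885-134947184 on the minus strand, Ctla2a at chr13:60936576-60936875 on the minus strand and Tnc at chr4:64046966-64047265 on the minus strand.
Cldn4: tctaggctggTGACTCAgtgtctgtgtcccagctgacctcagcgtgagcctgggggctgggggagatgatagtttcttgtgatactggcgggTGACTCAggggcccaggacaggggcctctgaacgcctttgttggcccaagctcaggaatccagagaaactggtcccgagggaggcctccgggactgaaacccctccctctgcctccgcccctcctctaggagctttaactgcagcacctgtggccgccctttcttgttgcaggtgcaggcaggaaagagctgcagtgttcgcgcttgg
Ctla2a: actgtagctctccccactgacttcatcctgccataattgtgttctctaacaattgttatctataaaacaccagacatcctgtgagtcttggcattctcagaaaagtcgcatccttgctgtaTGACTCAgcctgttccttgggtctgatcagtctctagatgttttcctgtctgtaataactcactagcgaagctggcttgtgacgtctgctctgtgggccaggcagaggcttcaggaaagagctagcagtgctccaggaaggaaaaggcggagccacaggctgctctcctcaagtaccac
Tnc: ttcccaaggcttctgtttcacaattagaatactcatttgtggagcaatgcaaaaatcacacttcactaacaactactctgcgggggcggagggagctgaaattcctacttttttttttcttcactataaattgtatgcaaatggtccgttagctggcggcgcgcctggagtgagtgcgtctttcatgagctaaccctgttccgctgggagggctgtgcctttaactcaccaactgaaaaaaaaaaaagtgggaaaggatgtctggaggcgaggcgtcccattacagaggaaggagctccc
The matches in Cldn4 lie 240 and 158 bases before the start, and the one in Ctla2a lies 129 bases before it. Ctla2a and Tnc have 2 windows each, and the one from the start farther upstream is shown. A window was given for 3 of the 7 score genes, Gabrp, Slco2a1 and Tnc, and 0 of the 3 held either motif. Among the genes at least 2-fold higher in members, defined below, with the score genes left out, a window was given for 198 of 279, and 24 of these genes (12.1%) held the AP-1 motif and 29 (14.6%) the TEAD motif. Over all 27025 genes with a window the shares were 8.97% and 16.6%, and over the 8107 tested genes with one 6.40% and 14.3%. A match is a description of these letters and not of binding.

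Each of the 7 score genes was low in most single columns, also in members. Krt17 (chr11, 100256217 to 100261029, minus strand of GRCm38, as are the positions below) ranged from 0 to 19.2 UMIs per 10000 over the members with a median of 0, and was detected in 32.5% of them. Summed, it was at 125 CPM (108 to 144) in members and 1.90 CPM (1.28 to 2.71) in the comparison columns, a ratio of 66.0 (44.8 to 100.4). Slco2a1 (chr9, 102988712 to 103096002, plus strand) ranged from 0 to 26.3 per 10000 with a median of 1.75, and stood at 263 against 14.6 CPM. Gabrp (chr11, 33550781 to 33578959, minus strand) ranged from 0 to 11.6 with a median of 0.933, at 177 against 16.6 CPM. Both genes had UMIs in over 50% of the members, 68.0% for Slco2a1 and 58% for Gabrp.

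Pdgfb (chr15, 79995874 to 80014977, minus strand) ranged from 0 to 9.28 UMIs per 10000 with a median of 0, at 127 against 11.7 CPM. Slc4a11 (chr2, 130684113 to 130697519, minus strand) ranged from 0 to 6.14 with a median of 0, at 82.2 against 8.54 CPM. Prss22 (chr17, 23993534 to 23998100, minus strand) ranged from 0 to 12.3 with a median of 1.70, at 161 against 22.2 CPM. Tnc (chr4, 63959785 to 64047015, minus strand) ranged from 0 to 52.5 with a median of 0, at 219 against 2.72 CPM, and at 128 CPM in the carcinoma-like members alone. Apart from the Krt17 and Tnc pair, whose ratios were 66.0 and 80.5, the ratios of the score genes lay between 7.23 for Prss22 and 18.1 for Slco2a1.

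In macrophage columns, defined by 8 or more of the 11 myeloid genes, Krt17 was detected in 0 of 150 columns. That allows a share of columns with a UMI of up to 2.43% at the exact 95% limit and says nothing of columns that express it below detection. With every column thinned to 2500 UMIs, Krt17 was detected in 19.0% of members (13.8% to 25.1%), 0.388% of comparison columns and 0 of the macrophage columns. At the same depth, Slco2a1 was detected in 41.5% of members, 4.12% of comparison columns and 4.00% of macrophage columns, and Prss22 in 37.5%, 5.87% and 2.00%. Among columns that are not members, the summed level of Slco2a1 was 5.79 CPM in cluster 1, 53.2 CPM in cluster 8 and 71.0 CPM in cluster 6, against 30.7 CPM (19.2 to 46.4) in macrophage columns and 5.47 CPM (1.49 to 14) in cluster 9, which macrophage genes lead. Epcam was at 417 CPM in the macrophage columns and 77.9 CPM in cluster 9, and the part of free RNA in these values was not tested. The median depth was 6011 UMIs in the comparison columns and 3888 UMIs in the macrophage columns before thinning.

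**Figure D2:**
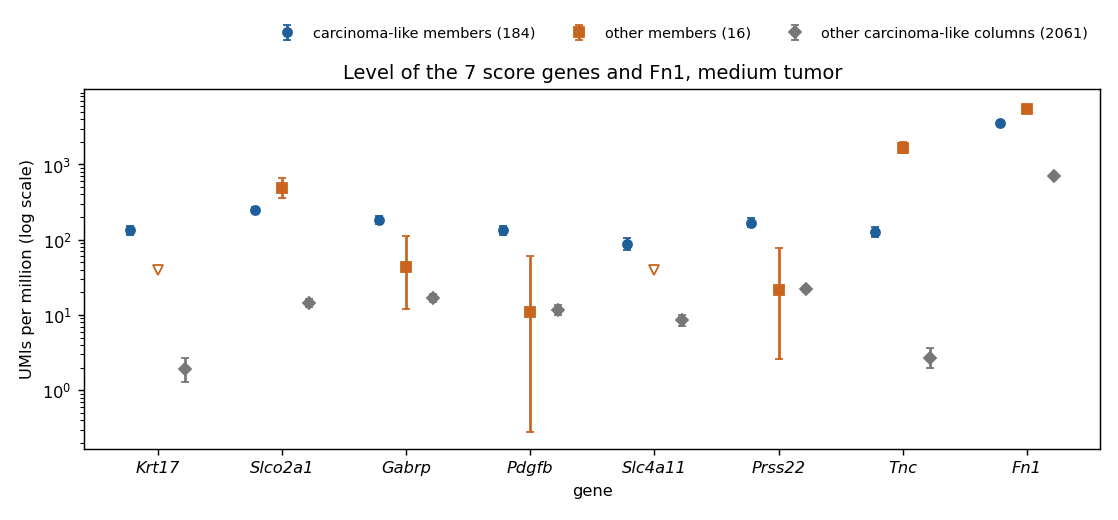
Level in CPM on a log axis for the 7 score genes and Fn1 in 184 carcinoma-like members (blue circles), the 16 other members (orange squares) and 2061 other carcinoma-like columns (grey diamonds). Bars are exact 95% Poisson intervals, and an open triangle is the upper limit of a gene with 0 UMIs. Among the 16 other members Krt17 and Slc4a11 have 0 UMIs while Tnc reaches 1678 CPM.

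The joint presence of the score genes is a description too, since the rule took columns that are high in their sum and all 7 lead cluster 6. When 200 columns were chosen by the other 6 genes, the left-out gene was still higher in them than in the remaining carcinoma-like columns, in the same cells. The ratio was 18.6 (14.1 to 24.7) for Krt17, 10.5 (8.95 to 12.4) for Slco2a1 and 35.5 (25.9 to 49.5) for Tnc. For Gabrp, Pdgfb, Slc4a11 and Prss22 it was 6.51, 7.21, 5.90 and 4.43. These ratios are smaller than with the gene in the score, and between 161 and 185 of the columns so chosen were members. Over the 7 genes, all 42 ordered pairs had the partner more often in carcinoma-like columns with the first gene than in those without it, each pair being counted both ways although 1 direction fixes the other. Of the 90 carcinoma-like columns with a Krt17 UMI, 57 (63.3%) had a Slco2a1 UMI, against 243 of 2155 (11.3%) without Krt17. With every column thinned to 2500 UMIs, the pair gave 13 of 46 columns (28.3%) against 149 of 2199 (6.78%), and all 42 pairs kept their direction.

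Fn1 was the marker of the label that the score did not use. However, Fn1 leads cluster 6 together with all of the score genes, in the same counts that chose the members. Its higher level in members is therefore a description too, and not an independent check of the label. Over the 200 members Fn1 (chr1, 71585520 to 71653200, minus strand) ranged from 0 to 139 UMIs per 10000 with a median of 32.8, and over the comparison columns from 0 to 107 with a median of 2.19, so the groups overlapped. Summed, Fn1 was at 3719 CPM (3624 to 3817) in members and 705 CPM (692 to 718) in the comparison columns, a ratio of 5.28 (5.11 to 5.45). In the carcinoma-like members alone the level was 3606 CPM and the ratio 5.12. It was above the comparison level also in members of each of the 3 main clusters, with 4160 CPM in cluster 6, 2187 in cluster 8 and 1046 in cluster 4. Among columns that are not members, Fn1 was at 3177 CPM in cluster 6, 1957 CPM in cluster 7 and 1540 CPM in cluster 8. Such columns held 608 CPM in cluster 4, 593 CPM in cluster 2, and 284, 249 and 219 CPM in clusters 1, 3 and 5. Fn1 was not particular to the members, since macrophage columns held 3027 CPM and columns with 5 or more fibroblast markers 2597 CPM. The 11 myeloid genes summed to 306 CPM in members and 296 CPM in the comparison columns. Both groups had passed the same limit on these genes, so the sums cannot show how much macrophage RNA they hold. The part of RNA from other cells in the Fn1 level was not tested. Against the 104 columns of cluster 6 that are not members, the ratio was 1.17.

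Of the 200 members, 132 (66.0%) lay in cluster 6 of 14 clusters found with Seurat, and they make up 55.9% of its 236 columns (49.4% to 62.4%). Its 10 leading genes were Krt17, Cldn4, Slco2a1, Ctla2a, Gabrp, Pdgfb, Slc4a11, Prss22, Tnc and Fn1, a list that holds all 7 score genes. Cluster 8, led by Dmbt1, Lcn2 and Sftpd, genes of secreted epithelial defense, and cluster 4, led by Tff3, Ly6d and Reg1, held 20 members each. Of the 46 members with 5 or more score genes, 42 lay in cluster 6. The members differed by cluster in which score genes they held. In cluster 6 all 7 were between 103 and 283 CPM. In cluster 8 Gabrp was at 232 CPM, Prss22 at 200 CPM and Slco2a1 at 168 CPM, but Tnc at 8.01 CPM, which is 1 UMI. In cluster 4 Prss22 was at 237 CPM and Gabrp at 217 CPM, while Krt17 was at 9.87 CPM, which is 1 UMI, and Tnc had 0 UMIs. Tnc in cluster 11 was at 2798 CPM and Slco2a1 in cluster 14 at 1343 CPM, in columns with fibroblast and endothelial markers. Over all columns with 5 or more fibroblast markers Tnc was at 415 CPM, and over those with 5 or more endothelial markers Slco2a1 was at 312 CPM.

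The clusters were made from the same counts, so the genes of a cluster in its members are a description. Dmbt1 was at 6505 CPM in members of cluster 8 and 6707 CPM in the other columns of that cluster, against 305 CPM in members of cluster 6. Reg3b, an antimicrobial lectin, was at 3433 CPM in members of cluster 4 and 1972 CPM in the other columns of that cluster, and at 125 CPM in those of cluster 6. Within cluster 6, members and the 104 columns that are not members had Krt19 at 2016 and 2029 CPM, Cldn4 at 511 and 394 CPM and Epcam at 3367 and 2247 CPM. Igfbp7 was at 3016 and 2035 CPM and Ctla2a at 8032 and 3577 CPM.

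**Figure D3:**
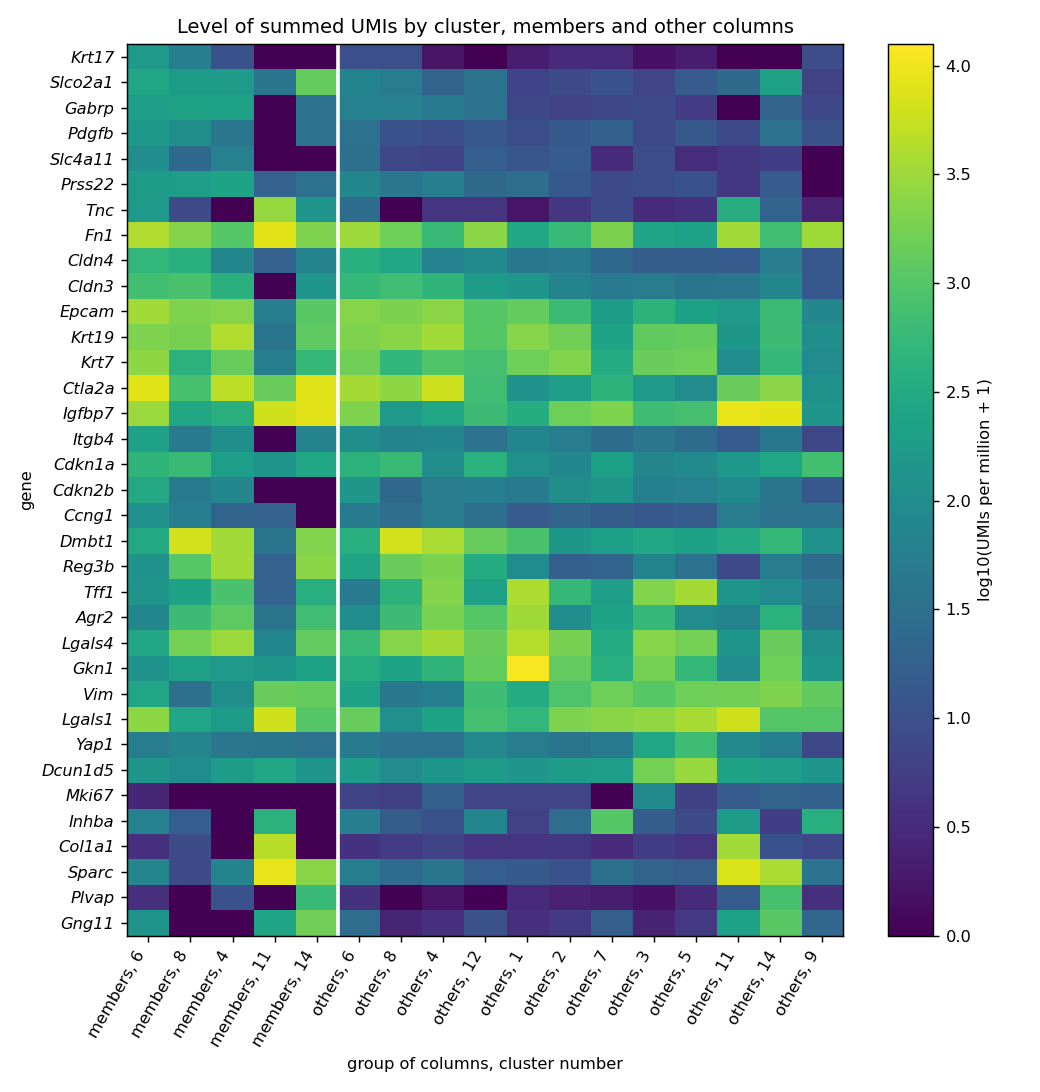
Level of 35 genes as log10 of CPM plus 1, for members (left of the white line) and other columns (right) by cluster number. Members of clusters 6, 8 and 4 share Gabrp, Prss22 and Slco2a1, members of cluster 11 are high in Col1a1 and Sparc and those of cluster 14 in Plvap and Gng11, and Yap1 and Dcun1d5 are high in clusters 3 and 5.

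Across all genes, 10608 had at least 50 UMIs in members and comparison columns together. The ratio after adding 10 CPM to both levels, called the damped ratio here, was at least 2 for 286 genes, 2.70% of those tested, and at most 0.5 for 169 genes, 1.59%. The median damped ratio over all tested genes was 1.06. With TMM scaling the split turned to 177 higher and 261 lower and the median to 0.957, so a value near 1 carries no direction. Without the 16 members that are not carcinoma-like, 246 genes were higher and 186 lower, and 230 of the 286 stayed at least 2-fold higher. With clusters 3 and 5 left out of the comparison columns, 215 of 9865 tested genes were higher and 168 lower. The counts of list genes below are to be read beside these numbers. Since the members were chosen on the same counts, all of these describe the profile and nothing is read from them about chance.

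With the score genes left out, the genes with the largest damped ratio among those detected in at least 25% of members were Sparc, Gng11, Stmn2, Ctla2a, Cldn4, Fn1, Trp53i11, Nrp1, Csf1, Mast4, Pdlim4, Anxa6, Endod1, Nradd, Serpinh1, Slc28a3, Atg9b, Cald1, Ano1 and Cldn3. Sparc, a matricellular glycoprotein, stood at 417 CPM against 21.8 CPM, a damped ratio of 13.4 with all members and 2.18 with the carcinoma-like members. Gng11, a G protein gamma subunit, was at 135 against 4.49 CPM, and at 101 CPM in the carcinoma-like members. Stmn2, a stathmin that binds tubulin, was at 162 against 10.4 CPM (153 CPM in the carcinoma-like members). Ctla2a, an inhibitor of cathepsin-type proteases, was at 6500 against 1053 CPM and its reads can be shared with the near-identical Ctla2b. Columns of cluster 4 that are not members held Ctla2a at 6200 CPM and those of cluster 8 at 2499 CPM. Over single members Ctla2a ranged from 0 to 542 UMIs per 10000 with a median of 24.4.

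Cldn4, a tight junction claudin, was at 420 CPM against 64.6 CPM, a ratio of 6.51 (5.89 to 7.18), and was detected in 68.5% of members and 22.3% of comparison columns. Its members' values ran from 0 to 17.3 UMIs per 10000 with a median of 3.06, within the range of the comparison columns (0 to 26.6). Cldn3 was at 640 against 177 CPM, and at 689 CPM in the columns of cluster 8 that are not members. Epcam was at 2833 against 951 CPM, past 2-fold, and at 2416 CPM in such columns of cluster 4 and 1981 CPM in those of cluster 8, while Krt19 was at 1965 against 1722 CPM and Prom1 at 62.9 against 72.7 CPM. Nrp1, a co-receptor for VEGF and semaphorins, was at 61.6 against 5.13 CPM, and Csf1, the growth factor of macrophages, at 53.3 against 4.05 CPM. Ano1, a calcium-activated chloride channel, was at 327 against 86.1 CPM, and Slc28a3, a nucleoside transporter, at 52.0 against 7.09 CPM. Serpinh1, a collagen chaperone, was at 206 against 48.6 CPM, and at 163 CPM in the carcinoma-like members.

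Of 21 tested classical and gastric genes, 9 were at least 2-fold lower and 0 higher (background 1.59% and 2.70%), with a median damped ratio of 0.539 against 1.06 over all genes. Gkn1, a gastrokine of the stomach surface, was at 211 CPM in members and 2782 CPM in the comparison columns, and Gkn2 at 41.1 against 921 CPM. Most of the comparison level came from cluster 1, whose columns that are not members held Gkn1 at 11299 CPM, while those of cluster 8 held 242 CPM and macrophage columns 220 CPM. Over single columns Gkn1 had a median of 0.851 UMIs per 10000 in members (0 to 238) and 2.32 in the comparison columns (0 to 1683). Agr2, a disulfide isomerase of mucus-secreting cells, was at 208 against 1006 CPM, Lgals4, an intestinal galectin, at 631 against 2381 CPM, and Tff1, a trefoil factor, at 608 against 2030 CPM. A single member held 599 of the members' 946 Tff1 UMIs, and without it Tff1 was at 223 CPM. The lineage regulators were closer to the comparison columns. Gata6 was at 44.3 against 59.7 CPM, Pdx1 at 19.9 against 29.4 CPM and Hnf4a at 31.5 against 35.9 CPM. Outside the list, Gkn3, Apob, Aqp5, Plac8, Mcpt2 and Psca were among the 10 lowest genes, with Plac8, a cysteine-rich protein, at 656 against 3482 CPM. Without clusters 3 and 5, 11 of the 21 were lower, and 12 of 21 with the members of cluster 6 alone.

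Among genes that anchor epithelium to its basement membrane, named after their values were seen, Itgb4, an integrin chain of the hemidesmosome, was at 179 against 53.1 CPM and Lama3, a laminin chain, at 75.8 against 26.4 CPM, while Itga6, the partner of Itgb4, was at 136 against 111 CPM. Lama3 fell below 2-fold when clusters 3 and 5 were left out of the comparison columns. Among 9 tested integrins 3 were higher and 0 lower (median 1.77, background 2.70% and 1.59%). Itga3 was at 133 against 45.8 CPM and Itga5, the fibronectin receptor chain, at 43.7 against 11.9 CPM. Itgb3 was at 19.3 against 1.84 CPM and Itgb1 at 491 against 274 CPM. Itga5 was under 2-fold with the carcinoma-like members when clusters 3 and 5 were left out. Of 10 tested basal and squamous genes, 2 were higher, Sfn and Pkp1, and 2 lower, Sprr1a and Ivl, and Sfn was under 2-fold without clusters 3 and 5. Sfn, an epithelial 14-3-3 protein, was at 277 against 112 CPM and Pkp1, a desmosomal plakophilin, at 48.8 against 10.1 CPM, and Ivl, a protein of the cornified envelope, was at 1.93 against 31.5 CPM.

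The count of matrix genes depended on the 16 members that are not carcinoma-like. Of 17 secreted matrix genes, 8 were at least 2-fold higher and 0 lower with all members (background 2.70% and 1.59%). With the carcinoma-like members 3 were higher, Fn1, Thbs1 and Lamb1, beside 246 of the 10608 tested genes. Thbs1, encoding thrombospondin 1, was at 154 CPM in all and 120 CPM in carcinoma-like members, against 42.9 CPM. Col5a2, a fibrillar collagen, had a damped ratio of 3.94 with all members and 0.912 with the carcinoma-like ones. Spp1, encoding osteopontin, was at 6435 against 10613 CPM. Of 4 tested fibroblast markers 3 were higher with all members and 0 with the carcinoma-like members. Mesenchymal genes did not move as a group. Of 13 tested, 2 were higher, Sparc and Msn, and 2 lower, Vim and S100a4. Vim, encoding vimentin, was at 345 CPM in members, 279 CPM in the carcinoma-like members and 848 CPM in the comparison columns, and Msn, encoding moesin, at 652 against 225 CPM. Without clusters 3 and 5, Vim was not 2-fold lower with all members but was with the carcinoma-like members, while Sparc was not 2-fold higher with the latter. Lgals1 was then at least 2-fold higher, with all members and with the carcinoma-like members. Zeb1 was at 21.2 against 20.8 CPM.

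**Figure D4:**
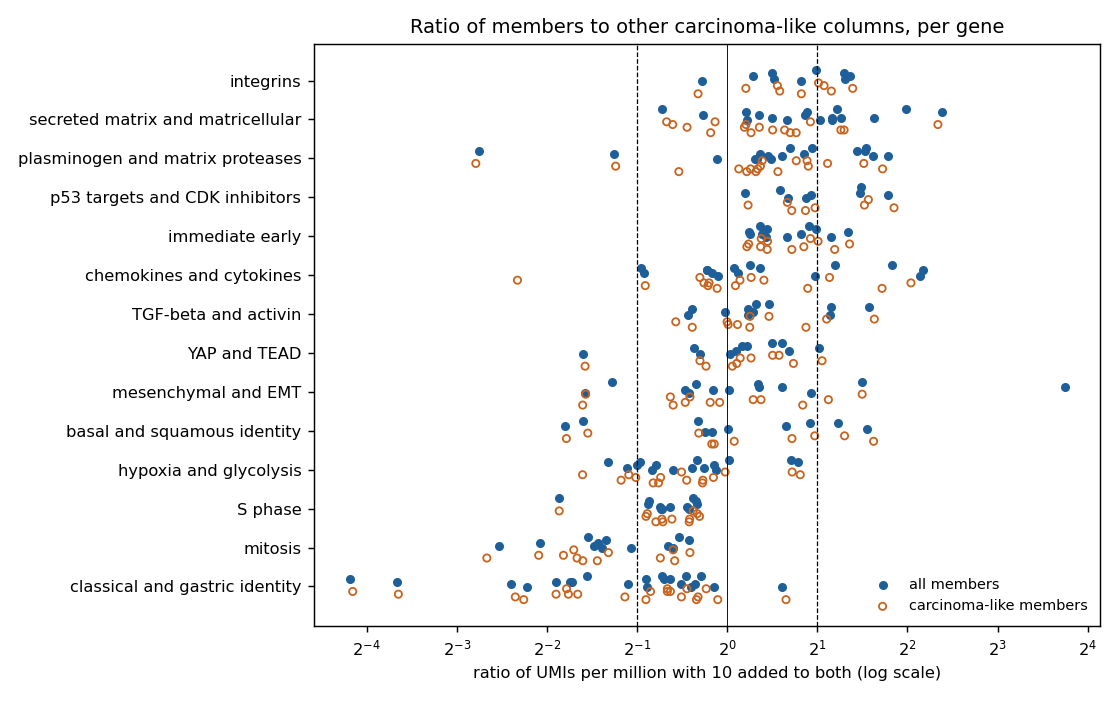
Damped ratio of members to other carcinoma-like columns (log axis) for each tested gene of 14 lists, with all 200 members (filled) and with the 184 carcinoma-like members (open). Dashed lines mark 0.5 and 2. The classical and mitotic lists lie mostly left of 1, the integrin and p53 lists mostly right of it, and Sparc moves from 13.4 to 2.18.

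Proteases and their inhibitors were mixed. Of 17 tested genes, 5 were higher and 2 lower (background 2.70% and 1.59%), and without the 16 members 3 were higher. St14, encoding the membrane protease matriptase, was at 110 against 34.0 CPM and Serpine2, an inhibitor of thrombin and plasminogen activators, at 55.2 against 8.92 CPM, both also past 2-fold in the carcinoma-like members. Timp1 and Timp3, inhibitors of metalloproteinases, had damped ratios of 2.90 and 3.06 with all members and of 1.31 and 1.09 in the carcinoma-like members. Mmp13, a collagenase, was at 4.5 against 87.3 CPM and Mmp10 at 2.57 against 20 CPM. Mmp7 was at 463 against 328 CPM. Of 3 tested genes of the PDGF axis beside Pdgfb, 0 were past 2-fold. Pdgfa was at 198 against 104 CPM, and Pdgfra and Pdgfrb had 1 and 3 UMIs in members. The receptors were found in columns with 5 or more fibroblast markers, with Pdgfrb at 61.8 CPM and Pdgfra at 38.8 CPM. Pdgfra is itself among the 10 markers that define these columns, so its level there follows from their choice, and Pdgfrb is not. Of 8 tested prostaglandin genes 0 were higher and 2 lower. Ptgs2, the inducible cyclooxygenase, was at 26.3 against 63.3 CPM and Ptges at 5.78 against 27.3 CPM, the latter not 2-fold lower without clusters 3 and 5. Of the other GABA receptor genes 2 were tested, Gabre and Gabbr1, and both lay between, with Gabre at 8.35 against 5.63 CPM.

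Of 12 mitotic genes, 8 were at least 2-fold lower and 0 higher (background 1.59% and 2.70%), with a median damped ratio of 0.389. Ube2c was at 3.21 against 66.4 CPM and Birc5 at 8.35 against 67.5 CPM. With each column thinned to 2500 UMIs, at least 3 mitotic genes were detected in 1 of 200 members (0.50%, 0.0127% to 2.75%) and in 7.18% of the comparison columns (6.10% to 8.38%). The comparison columns include cluster 3, led by Ube2c, Birc5 and Cenpf. Without clusters 3 and 5 the share was 0.845% (0.451% to 1.44%), which overlaps the members' interval, and 0 of the 12 genes were 2-fold lower. Cluster 3 is made up by mitotic genes and holds 2 members and 269 comparison columns, so leaving it out removes mitotic columns from the comparison by construction. Of 12 S phase genes 1 was lower, Rrm2, at 10.3 against 63.6 CPM, and 0 were lower without clusters 3 and 5. A single member held 8 of its 16 UMIs.

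Of 8 genes that p53 induces or that inhibit cyclin-dependent kinases, 3 were higher and 0 lower (median 1.87, background 2.70% and 1.59%). The same 3 were higher without clusters 3 and 5 and in the carcinoma-like members. Cdkn1a, encoding p21, was at 442 against 153 CPM, Cdkn2b, encoding p15, at 229 against 75.4 CPM, and Ccng1, encoding cyclin G1, at 94.4 against 20.4 CPM. Over single members Cdkn1a ranged from 0 to 28.2 UMIs per 10000 with a median of 2.98, and in comparison columns from 0 to 49.4 with a median of 0. Cdkn1a was not particular to cluster 6, with 480 CPM in its members and 601 CPM in those of cluster 8, whereas Cdkn2b was at 297 and 48.1 CPM. Macrophage columns held Cdkn1a at 666 CPM. Mdm2 and Bax, with 86.0 against 42.5 CPM and 319 against 196 CPM, lay under 2-fold.

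Signaling genes were for the most part within 2-fold. Of 11 YAP and TEAD genes, Tead1 was higher, at 60.4 against 24.7 CPM (under 2-fold with TMM scaling or without clusters 3 and 5), and Yap1 lower, at 57.1 against 193 CPM. The Yap1 value turns on clusters 3 and 5, which hold Yap1, Birc2, Dcun1d5 and Tmem123, which lie close together on chr9, at high levels, with Yap1 at 664 CPM in cluster 5. Without these clusters Yap1 was at 44.9 CPM in the comparison columns, below the members. The YAP target genes Cyr61 and Ctgf were at 315 against 220 CPM and 240 against 205 CPM. Of 11 TGF-beta and activin genes 3 were higher (background 2.70%), Ltbp1, Tgfb3 and Tgfbr2. Ltbp1, which tethers latent TGF-beta in the matrix, was at 132 against 37.7 CPM. Tgfbr2 was under 2-fold with the carcinoma-like members, with TMM scaling and without clusters 3 and 5. Tgfb3 was under 2-fold with the carcinoma-like members when clusters 3 and 5 were left out, and Inhba was then 2-fold lower. Of 8 EGF ligands and receptors Btc was lower, at 45.6 against 107 CPM, and Hbegf was at 967 against 620 CPM. Of 12 immediate early genes 2 were higher (background 2.70%), Ier3 at 721 against 280 CPM and Atf3 at 839 against 373 CPM. Fos was at 1401 against 1026 CPM. Atf3 was under 2-fold with TMM scaling and without clusters 3 and 5.

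Of 15 tested chemokines and cytokines 4 were higher, Ccl2, Csf1, Lif and Il11, and 0 lower (background 2.70% and 1.59%). Ccl2, a chemokine for monocytes, was at 109 against 17.1 CPM and Lif at 21.8 against 3.86 CPM, both also past 2-fold in the carcinoma-like members. Il11 had a damped ratio of 3.54 with all members and 0.811 with the carcinoma-like ones, and Il33 one of 0.516 and 0.200. Of 15 hypoxia and glycolysis genes 3 were lower, Bnip3, Pfkp and Pgk1, and 0 higher (median 0.764), with Ldha at 507 against 1002 CPM and Slc2a1, a glucose transporter, at 82.2 against 43.5 CPM. Without clusters 3 and 5, Bnip3 alone of the 15 was 2-fold lower. Of 11 wound and defense genes Lcn2 was higher, at 929 against 421 CPM, but under 2-fold with TMM scaling and without clusters 3 and 5. With the members of cluster 6 alone 0 of these 11 were higher and 7 lower, so the call for Lcn2 rests on members outside cluster 6.

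Members with more score genes lie more often in cluster 6, which holds 78 of the 87 members with 4 or more at full depth, so the number of score genes and the cluster cannot be told apart below. Each carcinoma-like member was thinned to 2500 UMIs and placed by how many score genes it then held, 56 columns with 0 or 1 and 19 with 4 to 7. Fn1 was at 3121 CPM (2836 to 3428) in the first group and 5116 CPM (4493 to 5801) in the last. Ctla2a went from 4029 to 9074 CPM and Igfbp7 from 1821 to 3305 CPM, while Gkn1 went from 579 to 63.2 CPM (81 and 3 UMIs). A single member held 98 of the members' 329 Gkn1 UMIs at full depth, and the thinned levels without it were not computed. The fall of Gkn1 can therefore rest largely on 1 column. Cldn4, at 486 and 421 CPM, and Vim, at 336 and 147 CPM, had intervals that overlapped. The score genes fix these groups, and Fn1, Ctla2a, Igfbp7 and Gkn1 are not among them. However, Fn1 and Ctla2a lead cluster 6 together with the score genes, and Gkn1 leads cluster 1. Their changes are therefore a description too.

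**Figure D5:**
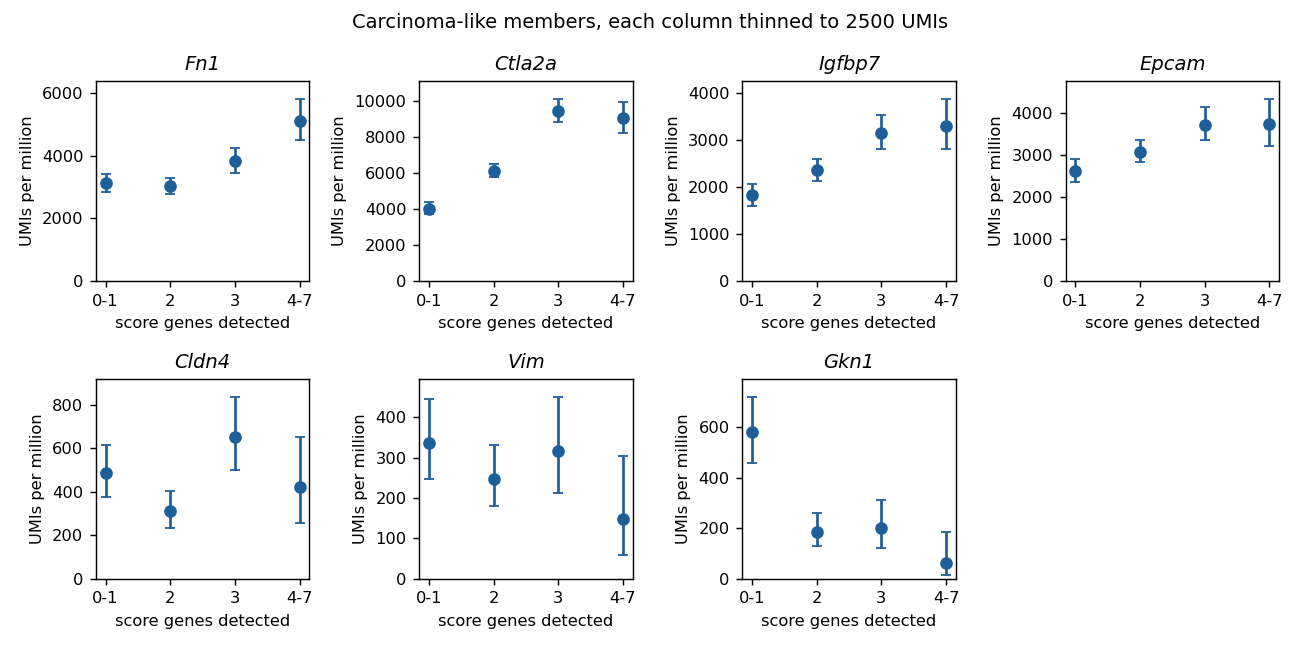
Level in CPM of 7 genes outside the score in carcinoma-like members thinned to 2500 UMIs, by the number of score genes detected after thinning, with exact 95% Poisson intervals. From 0 to 1 up to 4 to 7 score genes, Fn1 goes from 3121 to 5116 CPM and Gkn1 from 579 to 63.2 CPM. The Gkn1 levels are 81 and 3 UMIs, and a single member held 98 of the members' 329 Gkn1 UMIs before thinning.

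The large-size tumor held few UMIs of the score genes. Over its 1533 columns, with a median depth of 1037 UMIs, there were 105 UMIs of the 7 genes, against 3375 in the medium-size tumor, and 0 columns had 3 or more of them. Krt17 had 2 UMIs (0.893 CPM, 0.108 to 3.23) against 11.7 CPM over the medium-size tumor, Gabrp was at 2.23 against 27.8 CPM and Prss22 at 2.23 against 30.8 CPM. The other score genes were closer, with Slco2a1 at 12.5 against 36.5 CPM, Pdgfb at 8.49 against 20.6 CPM and Slc4a11 at 8.49 against 13.7 CPM. Tnc was at 12.1 against 25.1 CPM over all columns and Fn1 at 1164 against 1140 CPM. In carcinoma-like columns alone Slc4a11 was at 13.6 against 15.2 CPM, Slco2a1 at 7.26 against 34.5 CPM, Tnc at 1.81 against 13.3 CPM and Fn1 at 462 against 951 CPM. The same share of columns, 109, was taken there by the same rule, and 26 of these had 0 score genes, 81 had 1 and 2 had 2, with 49 being carcinoma-like. The 26 are tied at a score of 0 with the rest of 1380 eligible columns and were taken by their order in the table. With the score genes left out, 148 genes higher in the members were measured in the large-size tumor. Of these, 36 (24.3%) were at least 1.5-fold higher in the 109 columns, against 8.86% of all 5596 genes measured. With the 83 columns that hold a score gene UMI the share was 21.9%, against 9.95% of all genes. With the 49 carcinoma-like columns alone the share was 12.1% against 10.2% of all genes, with fewer columns and 132 list genes measured, and the part of the column class in this was not tested. The profile of the members was not detectable as a set of columns in the large-size tumor at this depth.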

How the data were processed

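The deposited tables hold whole UMI counts per gene and cell barcode, which the authors made from 10x Chromium 3′ reads with Cell Ranger on the mouse genome mm10, per the labels. The Cell Ranger version, the annotation and the method of calling cells are not given in the sources used here. Each table pools 4 technical replicates of 1 tumor. No column was filtered, 0 columns of values were left unused, and the tables hold 20301669 UMIs (medium size) and 2239012 UMIs (large size). They share 5 cell barcodes, of which 0 belong to members.

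Columns were clustered with Seurat 5.3.0 in R 4.3.3 (2000 variable genes, 10 principal components, resolution 0.8). Scrublet, run through scanpy 1.11.5, called 0 doublets among 2812 columns and so has not worked as a caller. Its score put 8 members in the top 5% of columns. Counts were summed per group in Python 3.11.15, and intervals are exact (scipy 1.17.1). Genes needed 50 UMIs over both groups, 10 CPM was added to both levels, and 2-fold was the limit for a call. In the large-size tumor the limits were 20 UMIs and 1.5-fold. Columns were thinned at random to 2500 UMIs for comparisons across depths. TMM factors are from edgeR 4.0.16. The steps were tested on simulated data. Gene positions are GENCODE M21 (GRCm38).

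The members and gene lists were chosen with earlier results of these data known. Named genes are the 7 score genes, Fn1, list genes with the largest or smallest ratio, and the 20 highest and 10 lowest genes detected in at least 25% of the higher group, together with the leading genes of clusters. Other list genes and the cluster comparisons were named after their values were seen. Alternatives changed the number of members, score, myeloid limit, comparison columns, scaling, CPM added and UMI minimum. Results that need items withheld from this work are not reported here.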

Additional observations from a re-analysis of the deposited data

How the results depend on the processing

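Members of 1 tumor carry no replicate error, and intervals cover counting error only. No paired analysis was possible because the technical replicates are pooled in 1 table per tumor, and for the same reason leaving out each of them could not be run. Under TMM scaling the split turned from more higher to more lower genes, and the lower call of Yap1 turned when clusters 3 and 5 were left out, both given above. Of 18 alternatives, 14 left the count of higher genes and 10 that of lower genes within 1.5 times. Outside that range, the lower count was 318 with 100 members and 80 with 400, 110 with fewer than 2 myeloid genes, and the higher and lower counts were 144 and 81 with a score by the number of genes detected, 177 and 261 with TMM scaling and 743 and 618 with 1 CPM added.

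The Fn1 ratio was 5.45 with 100 members, 4.53 with 400, 4.47 after thinning, 4.38 with the number of genes detected, 3.93 with fewer than 2 myeloid genes, 5.67 and 5.02 without the top 5% of Scrublet scores or of UMIs, 5.09 against other columns of epithelial clusters, 4.02 against all other columns and 4.45 with TMM scaling. The share of members with 4 epithelial markers was 100% with 100 members, 100% by definition with the carcinoma-like members alone, 89.0% after thinning, 99.5% by the number of genes detected and 88.5% with fewer than 2 myeloid genes. In the large-size tumor, the share of genes also higher was 14.2% at 2-fold, against 2.06% of all genes, and 12.1% with carcinoma-like columns.

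Among alternatives chosen after seeing the data, the Fn1 ratio was 3.78 without clusters 3 and 5. With members of cluster 6 alone it was 5.90, 310 genes were lower and 100% of members had 4 epithelial markers. Against the cluster 6 columns that are not members it was 1.17, with 62 genes higher and 21 lower, of 5501 tested. The levels without a single member and the share in large-size columns with a score gene UMI, given above, were also chosen after seeing the data. The cause of these changes was not tested.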
